A study of Mus musculus with 8 samples.

Results

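The replication-dependent histone genes were examined across 4 groups of arrays from mouse TEC100.4 cells. They were chosen by name, as all genes whose older symbol begins with Hist1h to Hist4h or whose newer symbol belongs to the numbered H1f, H2ac, H2bc, H3c and H4c series. Of 71 such genes in the RefSeq gene table, 48 had a probe on the array, of 22912 genes named there, with 52 of its 56605 probes. By histone type, 6 probes were for H1, 14 for H2A, 14 for H2B, 7 for H3 and 11 for H4. The older names also brought in H1f6, H2aw, H2bu2 and H4f16. The probe of H2ac7 was not well above background on any array, and the other 51 probes, of 47 genes, were tested.

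TEC100.4 cells are immortalized and derive from the cortical epithelium of the mouse thymus. Their derivatives here carried a mutant of the transcription factor TFII-I, encoded by Gtf2i, under doxycycline control: the β isoform in TEC100.4/TFII-I-βmt and the δ isoform in TEC100.4/TFII-I-δmt. Each line was cultured for 24 h with or without doxycycline, with 2 one-colour arrays per group. Titles place the untreated samples in the mutant lines, but their genotype label speaks of the wild type, and the titles were followed. A doxycycline-treated line without a mutant was not analysed here, so effects of the drug and of the mutant cannot be told apart. Whether the 2 arrays of a group stem from independent cultures is not stated, and the p-values therefore reflect a spread that may be technical. All arrays lay on 1 slide, treated arrays in row 1 and untreated arrays in row 2, so slide row and doxycycline cannot be told apart. The β arrays lay in columns 1 and 2 and the δ arrays in columns 3 and 4, so slide column and line cannot be told apart. Each isoform was carried by 1 line, so isoform and line cannot be told apart either.

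Replication-dependent histone genes supply the core histones H2A, H2B, H3 and H4 and the linker histone H1 that package newly made DNA, and they are transcribed mainly in S phase. Most of their mRNAs end in a conserved stem-loop in place of a poly(A) tail. Slbp binds that stem-loop, and Npat activates transcription of the clusters at the entry into S phase. The labelling kit named in the labels starts cDNA synthesis from an oligo(dT) primer, so the signal of such an mRNA depends on how much of it carries a stretch of A as well as on its amount. In RNA of whole cultures, fewer cells in S phase and less histone mRNA per cell cannot be told apart.

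Treated arrays had 43424 to 44934 probes well above background and untreated arrays 37415 to 40717. The 75th percentile of intensity, to which each array was scaled, differed by -0.42 on the log2 scale between treated and untreated arrays of the β line and by -0.02 in the δ line. Untreated δ replicate 1 stood apart, with a local defect over 78 of its 1008 tiles of spots against 0 to 7 on the other arrays. Spots in such tiles were left out on that array, which removed 1 value each for H2bc14 and H3c1. The 3 probes of Gtf2i did not pass the threshold with doxycycline in either line. The largest difference was 1.31 in the β line (limma adjusted p = 0.0552) and 0.18 in the δ line. Of 10 markers of cortical thymic epithelium, 7 or 8 were well above background on each array. Psmb11 and Epcam were not tested, and Foxn1, the regulator of thymic epithelial identity, was dim, with group means from -4.83 to -4.35. Of 8 medullary markers 4 to 6 were well above background, and of 7 fibroblast markers 6 or 7. The lines differed in the summed levels of the cortical and medullary markers, but single markers were divided. Read through the brightest probe of each gene, 4 of 8 tested cortical markers were higher in the untreated δ line and 4 lower. Of 5 tested medullary markers, 2 were higher there and 3 lower. Between the treated lines, 2 cortical markers were higher in the δ line and 6 lower, and all 5 medullary markers were lower. On the linear scale the summed cortical level was 28.2 to 31.9 on β arrays and 16.5 to 16.8 on δ arrays. The summed medullary level was 30.4 to 38.8 on β arrays and 4.39 to 5.44 on δ arrays.

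Levels are given as log2 intensity relative to the array's 75th percentile. They compare arrays for 1 probe and do not compare probes, because each probe has its own brightness. All but 1 of the tested histone probes were well above background on every array where they were measured. The exception, H2bc23, was so on 6 arrays. No histone spot was saturated. The plot of levels shows each probe on every array.

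**Figure D1:**
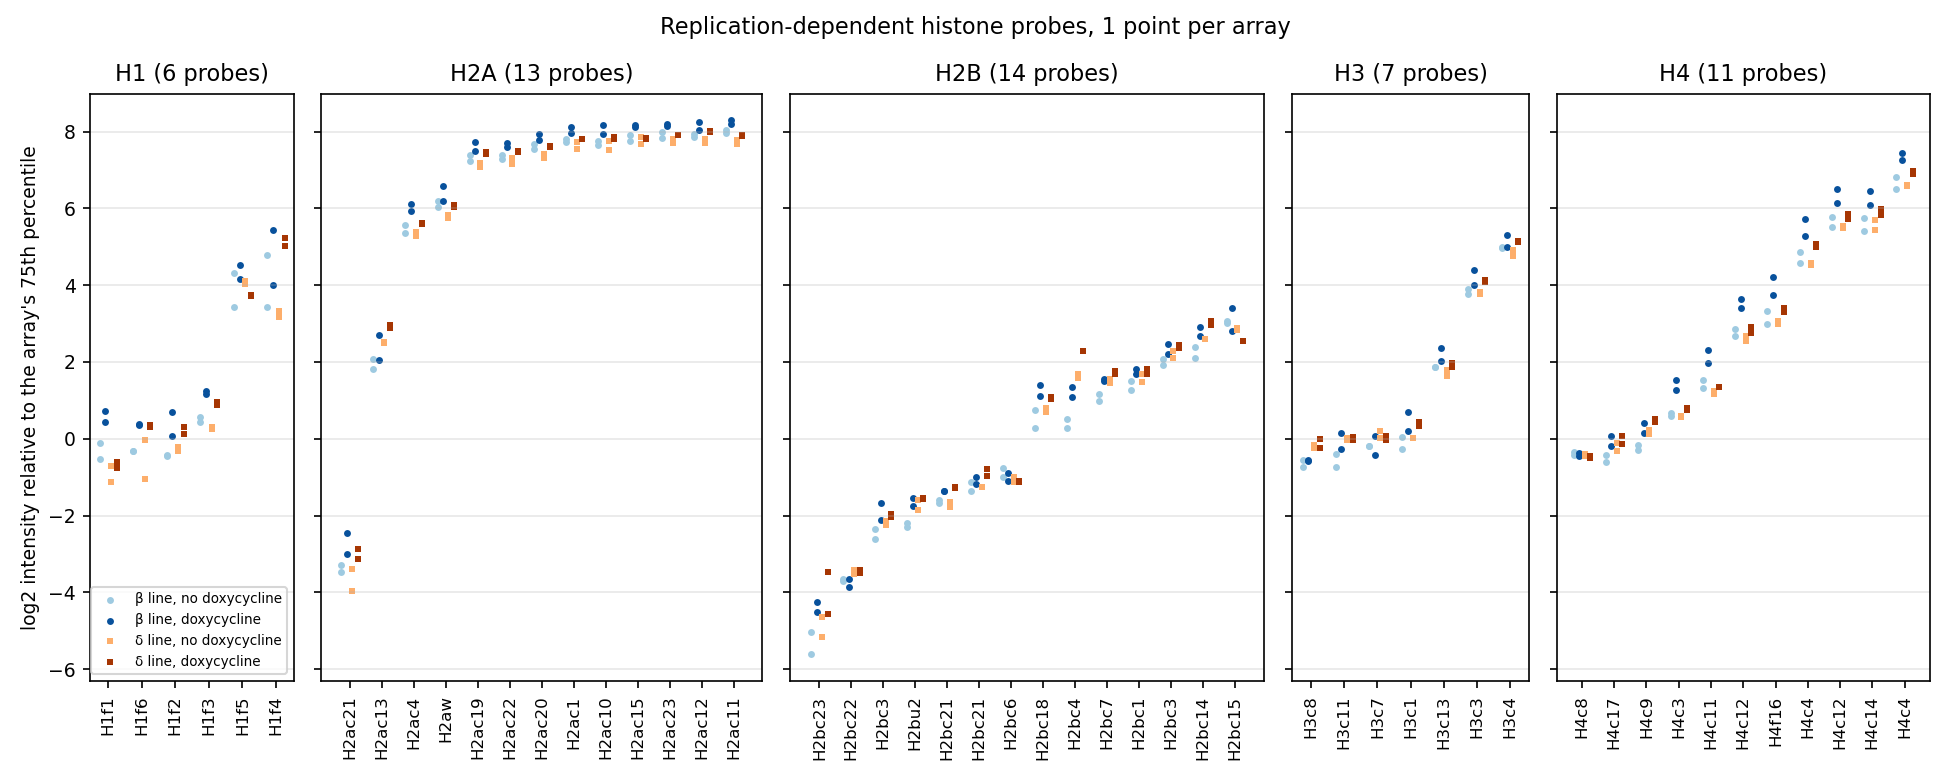
Level of the 51 tested histone probes by histone type, 1 point per array. The vertical axis is log2 intensity relative to the array's 75th percentile, circles are the β line, squares the δ line, and dark colours are doxycycline. Dark blue points lie above light blue points for 40 of the 51 probes. Probes are ordered by their mean, and their brightness does not rank the genes.

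In the β line, most histone probes were somewhat higher with doxycycline, but none passed the threshold. The log2 fold change was above 0 for 48 of 51 probes, against 57% of all 44395 probes tested, and the median was 0.46 against 0.04 over all of them. With limma, 0 of 51 had an adjusted p under 0.05, where 0.223% of all probes did. At an unadjusted p under 0.05, 34 of 51 were higher, against 10.9% of all probes, and 0 were lower. The treated arrays exceeded both untreated ones for 40 of 51 histone probes, against 27.6% of all probes, and the reverse held for 0, against 17.6%. Without scaling between arrays, 28 of 51 were above 0, beside 12.4% of all probes, and the β median was 0.058, beside -0.36 over all probes. The arrays' own medians show the spread. The histone probes deviated from their means over the 8 arrays by a median of 0.12 and 0.31 on the treated β arrays and by -0.25 and -0.08 on the untreated β arrays.

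In the δ line the same comparison gave smaller values. The log2 fold change was above 0 for 46 of 51 probes, against 52.7% of all probes, with a median of 0.24 against 0.02 over all of them. By limma, 0 passed the threshold, where 0.0788% of all probes did, and 11 were higher at an unadjusted p under 0.05, against 8.69% of all probes, with 0 lower. Of the 49 histone probes measured on all arrays of the line, 38 were higher on both treated arrays than on both untreated arrays, against 30.4% of all probes. The reverse held for H1f5 and H2bc15, 2 probes, against 25.5% of all probes. The median deviation was 0.10 and 0.05 on the treated δ arrays and -0.14 and -0.18 on the untreated ones. The medians of the 2 conditions did not overlap in either line.

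**Figure D2:**
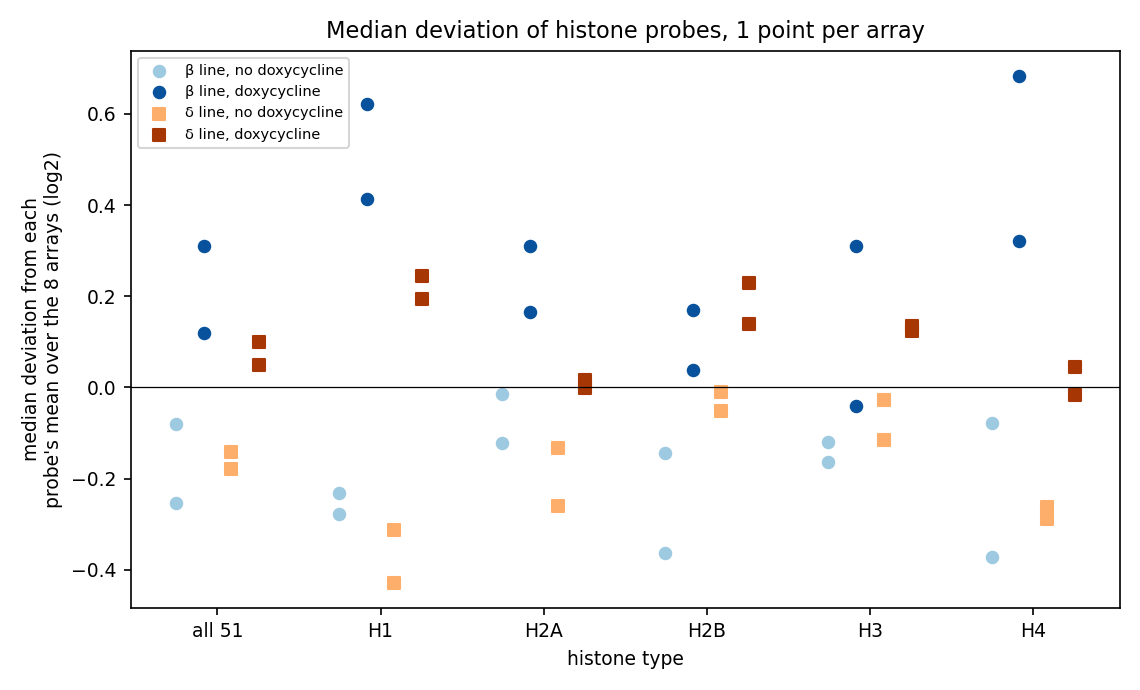
Median deviation of the histone probes from each probe's mean over the 8 arrays (log2), for all 51 probes and by histone type, with 1 point per array. Circles are the β line, squares the δ line and dark colours doxycycline. The medians over all histone probes are 0.12 and 0.31 on the treated β arrays and 0.10 and 0.05 on the treated δ arrays, above the untreated arrays of each line.

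The linker histones H1 bind DNA between nucleosomes. All 6 H1 probes had a log2 fold change above 0 in the β line (median 0.69) and 5 of 6 in the δ line (median 0.57). H1f3 had the lowest adjusted p of all histone probes in both lines. It read 1.16 and 1.24 on the treated and 0.58 and 0.44 on the untreated β arrays, and 0.97 and 0.89 on the treated and 0.24 and 0.30 on the untreated δ arrays. The log2 fold change was 0.69 ± 0.11 (SE; limma adjusted p = 0.0684) in the β line and 0.65 ± 0.11 (limma adjusted p = 0.119) in the δ line. Treated arrays lay above untreated arrays in both lines.

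H1f4, the brightest H1 probe, differed between the β replicates by 1.43 with and 1.37 without doxycycline. It read 4.01 and 5.43 on the treated and 4.80 and 3.43 on the untreated β arrays, against 5.02 and 5.23 on the treated and 3.16 and 3.32 on the untreated δ arrays. The β groups overlapped. The δ groups did not, and the log2 fold change there was 1.88 ± 0.55 (SE; limma adjusted p = 0.283). H1f5 went apart from the other H1 probes in the δ line, at 3.71 and 3.75 on the treated and 4.10 and 4.04 on the untreated arrays. H1f6, a linker histone of the testis, was measured at 0.35 and 0.40 on the treated and -0.32 and -0.31 on the untreated β arrays, and at 0.30 and 0.35 on the treated and -1.05 and -0.04 on the untreated δ arrays. Its treated arrays lay above its untreated arrays in both lines, and neither comparison passed the threshold.

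H2A and H2B form the dimers on the outside of the nucleosome. All 13 tested H2A probes had a log2 fold change above 0 in both lines, with medians of 0.30 in the β line and 0.24 in the δ line. In the β line the H2A median was 0.11 with quantile normalization, with 11 of 13 probes above 0, and -0.10 without scaling between arrays, with 3 of 13 above 0, where the median of all probes was -0.36. Of these probes, 9 from 9 genes had a mean level above 7, and their log2 fold changes lay between 0.24 and 0.36 in the β line and between 0.06 and 0.31 in the δ line. The brightest, H2ac11, read 8.30 and 8.20 on the treated and 7.97 and 8.05 on the untreated β arrays, and 7.89 and 7.91 on the treated and 7.68 and 7.79 on the untreated δ arrays. Its groups did not overlap in either line, at 0.24 ± 0.10 (SE; limma adjusted p = 0.297) in the β line, where quantile normalization gave -0.04.

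H2ac1, a germ cell H2A, read 7.98 and 8.12 on the treated and 7.72 and 7.80 on the untreated β arrays, and 7.81 and 7.80 against 7.73 and 7.54 on the δ arrays. Histone H2A copies are nearly identical in coding sequence. The probe sequences were not used here, so how far 1 probe reads several copies was not tested, for H2A as for the other types.

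The 14 H2B probes were less uniform than the H2A probes, with 12 above 0 in each line and medians of 0.41 in the β line and 0.22 in the δ line. The β median was 0.01 without scaling between arrays, with 7 of 14 above 0. H2bc22 and H2bc6 lay at or near 0 in both lines, with log2 fold changes of -0.08 and -0.11 in the β line and 0.01 and -0.06 in the δ line. H2bc15, the brightest, read 2.80 and 3.41 on the treated and 3.06 and 3.02 on the untreated β arrays, and 2.56 and 2.54 against 2.88 and 2.85 on the δ arrays, so it overlapped in the β line and was lower on both treated δ arrays. H2bc1, a germ cell H2B, read 1.68 and 1.82 on the treated and 1.26 and 1.51 on the untreated β arrays, and 1.81 and 1.68 against 1.47 and 1.68 on the δ arrays. Neither gene passed the threshold in either line.

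H3 and H4 form the tetramer at the core of the nucleosome. The 7 H3 probes had medians of 0.32 in the β line, with 7 above 0, and 0.21 in the δ line, with 6 above 0. Without scaling between arrays, the β median was -0.08, with 2 of 7 above 0. H3c4, the brightest, read 4.99 and 5.32 on the treated and 4.97 and 5.01 on the untreated β arrays, and 5.14 and 5.16 against 4.77 and 4.92 on the δ arrays. It overlapped between conditions in the β line and did not in the δ line. H3c7 and H3c8 stayed near 0 in both lines, between -0.08 and 0.09.

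The H4 probes lay close together. In the β line 10 of 11 were higher on both treated arrays, against 27.6% of all probes, and so were 12 of 13 H2A probes. The median H4 log2 fold change was 0.69. Of the H4 probes 8, from 6 genes, lay between 0.68 and 0.82 with limma adjusted p-values from 0.0689 to 0.138. The same 8 probes lay between 0.14 and 0.49 in the δ line, with adjusted p-values from 0.334 to 0.703. The brightest, a probe of H4c4, read 7.27 and 7.46 on the treated and 6.51 and 6.82 on the untreated β arrays, and 6.97 and 6.91 against 6.58 and 6.60 on the δ arrays. H4c8 was the exception, at -0.46 and -0.37 on the treated and -0.34 and -0.44 on the untreated β arrays. Its log2 fold change was -0.03 in the β line and -0.05 in the δ line, and its groups overlapped in both. H4c8 and the group of 8 probes were singled out after their values were seen. The β median over all 11 probes was 0.29 without scaling between arrays, with 10 above 0.

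**Figure D3:**
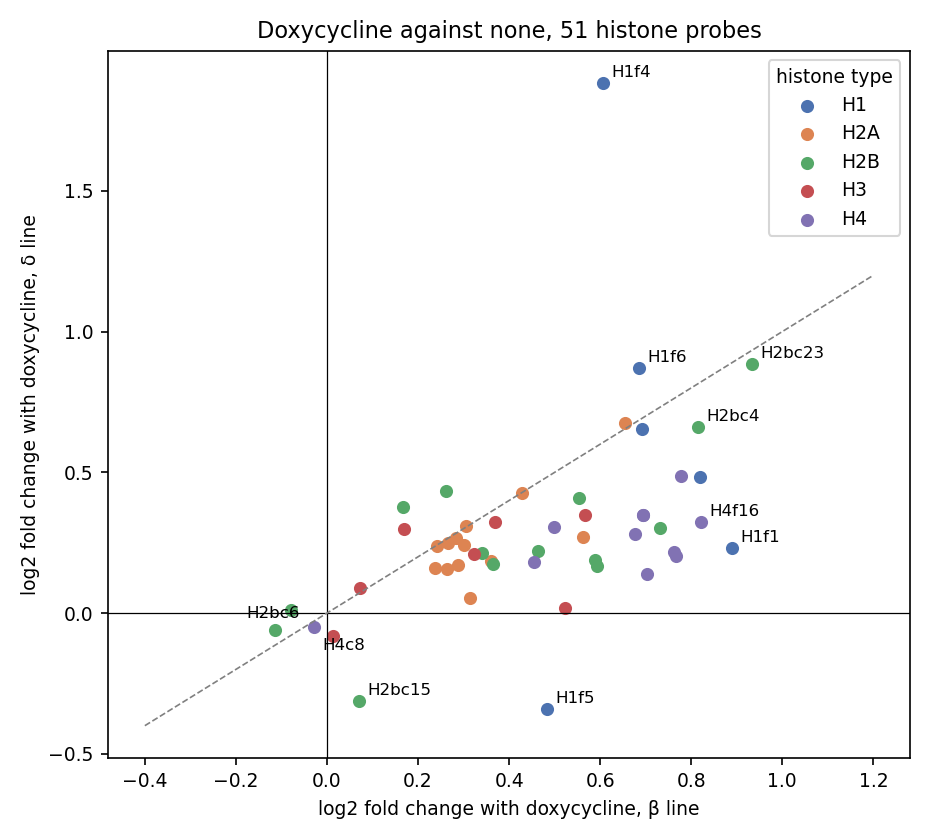
Log2 fold change with doxycycline in the β line (horizontal) and the δ line (vertical) for the 51 tested histone probes, coloured by histone type. The dashed line marks equal values and 10 probes are named, chosen after the values were seen. Most points lie right of 0 and below the dashed line, and H1f4 stands apart at 1.88 in the δ line.

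Set beside each other, the β and δ values shared their sign above 0 for 45 of 51 probes, and the β value was the larger for 41. Across these probes, which share their arrays and are not independent, Pearson's r was 0.47 and Spearman's rho 0.53. They share no control arrays. The difference itself was tested as an interaction. By limma, 0 of 51 probes passed the threshold, where 0.00676% of all probes did, 3 had an unadjusted p under 0.05 against 7.49% of all probes, and the lowest adjusted p was 0.664. The median difference, δ minus β, was -0.14, and 10 of 51 were above 0 against 49.9% of all probes. It was below 0 for all 11 H4 probes, with a median of -0.35, but without scaling between arrays 4 of 11 were above 0 and the H4 median was -0.02. The median difference over all histone probes was then 0.17, with 34 of 51 above 0, beside a median of 0.31 and 82.2% above 0 over all probes.

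Between the lines without doxycycline, the histone probes were divided. By limma, 1 of 51 passed the threshold, where 8.56% of all probes did. Of 49 probes, 13 were higher on both δ arrays and 15 lower, against 24.5% and 26.9% of all probes. The probe that passed, against 4.66% of all probes in that direction, was H2bc4, an H2B gene. It read 0.28 and 0.51 on the untreated β arrays and 1.57 and 1.70 on the untreated δ arrays, which is higher in the δ line by 1.24 ± 0.14 (SE; limma adjusted p = 0.00327).

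Between the lines with doxycycline, 5 of 51 probes passed the threshold by limma, a share of 9.8% near the 9.7% of all probes. H2bc4 was again higher in the δ line, against 5.76% of all probes called higher, and H1f1 and 3 H4 probes, 4 of 51, were lower, against 3.94%. Both δ arrays lay below both β arrays for 27 probes, against 35.5% of all probes, and above them for 9, against 28.4%. H2bc4 read 1.08 and 1.34 on the treated β arrays and 2.30 on both treated δ arrays, a difference of 1.09 ± 0.14 (SE; limma adjusted p = 0.00592). H1f1, a linker histone, read 0.44 and 0.72 on the treated β arrays and -0.61 and -0.76 on the treated δ arrays, which is lower in the δ line at -1.26 ± 0.21 (SE; limma adjusted p = 0.0144). Without doxycycline H1f1 was also lower on both δ arrays, at -0.71 and -1.12 against -0.52 and -0.10 on the β arrays. That untreated difference was -0.60 (limma adjusted p = 0.135), and with normexp it passed the threshold (limma adjusted p = 0.0355).

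The 3 H4 probes followed 1 pattern. H4c11 read 1.96 and 2.31 on the treated β arrays and 1.36 and 1.34 on the treated δ arrays (-0.79 ± 0.15, SE; limma adjusted p = 0.0223). H4c3 read 1.28 and 1.53 against 0.80 and 0.75 (-0.63 ± 0.12, SE; limma adjusted p = 0.0239). One of 2 probes of H4c12 read 3.41 and 3.64 against 2.91 and 2.77 (-0.69 ± 0.13, SE; limma adjusted p = 0.0261). The second H4c12 probe had an adjusted p of 0.0875. Without doxycycline the same 3 H4 probes differed between the lines by -0.22, -0.07 and -0.14, with adjusted p-values from 0.406 to 0.784.

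**Figure D4:**
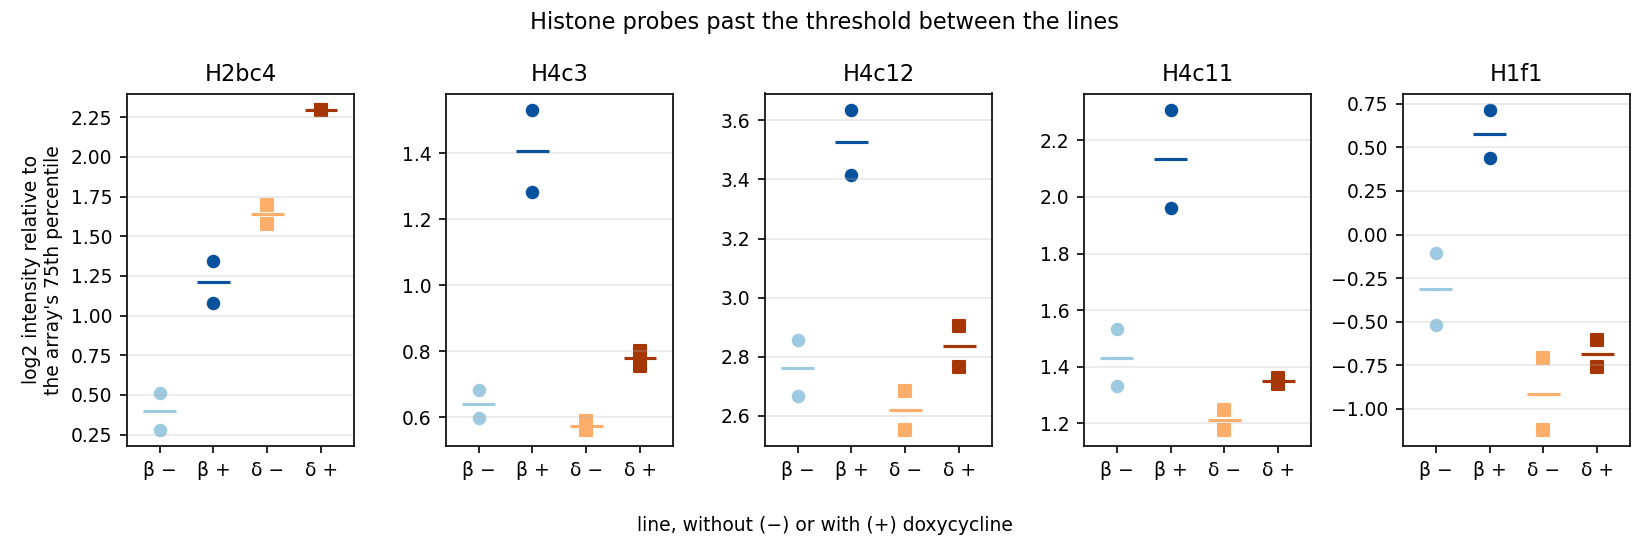
The 5 histone probes that passed the threshold between the treated lines, with 1 point per array and a bar at the mean of 2 arrays. The vertical axis is log2 intensity relative to the array's 75th percentile and each panel has its own scale. The horizontal axis gives the line and whether doxycycline was absent (−) or present (+). H2bc4 is higher in the δ line in both conditions, and H1f1 and the H4 probes are highest on the treated β arrays.

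With 1 treated array left out, a group has 1 array, assumed to vary like the others, and most calls were lost. The difference then lay between 0.95 and 1.22 for H2bc4, between -1.40 and -1.12 for H1f1 and between -0.96 and -0.50 for the 3 H4 probes. Leaving out treated δ replicate 1 or 2 left 0 of 5 past the threshold, where 2.24% and 2.42% of all probes still passed, and leaving out treated β replicate 2 left H2bc4 alone of the 5. H4c12 was also lost with normexp, with median centring and before detrending, H4c11 before detrending and H4c3 with median centring, and without scaling between arrays all 3 H4 calls were lost. H4c12 and H1f1 were lost without treated β replicate 1, at adjusted p-values of 0.056 and 0.0508. H2bc4 kept its call between the untreated lines in every alternative run.

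The letters upstream of the H4 genes that passed are shown because the H4 probes gave like values, together with those of H1f1. The RefSeq promoter table of build GRCm38.p6 held 43 of the 48 genes, not H2bc4. Each line gives the 150 bases before the annotated start, 5′ to 3′ on the gene strand. Searched motifs that lie wholly within these bases (a CCAAT box, a TATA box and the H4 site II letters) are in capitals. They lie at chr13:23698459-23698608 (minus strand, H4c3), chr13:21734884-21735033 (plus strand, H4c11), chr13:21750554-21750703 (minus strand, H4c12) and chr13:23763518-23763667 (plus strand, H1f1).
H4c3: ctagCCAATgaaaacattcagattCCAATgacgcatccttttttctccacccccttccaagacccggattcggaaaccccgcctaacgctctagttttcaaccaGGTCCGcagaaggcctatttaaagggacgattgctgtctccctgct
H4c11: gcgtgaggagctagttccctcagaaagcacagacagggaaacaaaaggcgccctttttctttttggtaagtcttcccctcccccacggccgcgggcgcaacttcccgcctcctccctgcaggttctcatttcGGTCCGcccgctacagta
H4c12: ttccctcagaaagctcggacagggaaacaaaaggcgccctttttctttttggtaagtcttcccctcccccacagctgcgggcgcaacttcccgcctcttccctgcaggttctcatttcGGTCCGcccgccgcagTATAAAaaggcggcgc
H1f1: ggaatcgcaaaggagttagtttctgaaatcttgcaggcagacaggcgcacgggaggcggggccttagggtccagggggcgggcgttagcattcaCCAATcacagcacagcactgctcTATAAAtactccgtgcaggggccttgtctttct

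GGTCCG, letters of the element called site II in H4 promoters, lay within the 300-base window from 250 bases before the start in 8 of 8 H4 promoters, counting both strands, and in 1 of 5 H3 promoters, against 8.25% of all 32851 promoters. Over the 8 H4 promoters it began between positions -47 and -5, at -46 in H4c3, -18 in H4c11 and -32 in H4c12. CCAAT lay in 2 of 8 H4 promoters and in all promoters of the other types, against 37.4% of all promoters. TATAAA lay in 4 of 6 H1, 8 of 14 H2A, 6 of 10 H2B, 2 of 5 H3 and 5 of 8 H4 promoters, against 13.6%. H4c11 is among these, with a match that does not lie wholly within the bases printed above. The octamer ATTTGCAT lay in 5 of 14 H2A and 5 of 10 H2B promoters and in none of the others, against 1.74%, and AAACACA lay in 5 of 6 H1, 2 of 14 H2A and 2 of 10 H2B promoters and in none of the others, against 7.18%. CACGTG, an E-box, lay in none of the 43, against 7.15%. These matches describe letters only.

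In the fit reported here, 0 of 39 factors that make and process histone mRNA passed the threshold with doxycycline in either line. Over all probes, 0.223% passed in the β line and 0.0788% in the δ line. Each gene of this and the further lists was read through its brightest tested probe. Of the 39 factors, 10 were above 0 in the β line (median -0.15) and 29 in the δ line (median 0.07). The stem-loop binder Slbp read -0.38 and -0.44 on the treated and 0.58 and 0.31 on the untreated β arrays, and -0.29 and -0.42 against -0.04 and 0.05 on the δ arrays. It was lower on both treated arrays in both lines, by -0.85 ± 0.13 (SE; limma adjusted p = 0.0667) in the β line and -0.35 ± 0.13 (limma adjusted p = 0.337) in the δ line. A second probe gave -0.61 and -0.17. In the β line the first Slbp probe passed the threshold in 3 of 19 alternative runs and the second in 0 of 17. Npat, the activator of the clusters, gave -0.36 (limma adjusted p = 0.212) and -0.06. Between the untreated lines limma called 3 of 39 (E2f2, Eri1 and Ncbp1, lower in the δ line), against 3.91% of all probes called lower. Between the treated lines it called 4 of 39, where 9.7% of all probes passed. E2f2 was lower and Cdk9, Lsm10 and Tut7 were higher in the δ line. In a separate fit of the brightest probe of each gene, 15.1% of all genes passed between the untreated lines and 19.1% between the treated lines. Shares over all probes are therefore a low reference for the lists.

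Further lists were read in the same way. Of 40 S phase and DNA replication genes, 10 were above 0 in the β line with doxycycline (median -0.13) and 21 in the δ line (median 0.00). By limma 0 passed the threshold in either line, where 0.223% and 0.0788% of all probes did. Without doxycycline all 40 were lower in the δ line than in the β line (median -0.29), where 48.1% of all probes were above 0. Cdc6, Mcm5, Orc1, Prim1 and Rpa2 passed the threshold, 5 of 40 against 3.91% of all probes called lower. Of 29 histone chaperones, 7 were above 0 in the β line and 19 in the δ line, with Atrx and Ubn2, 2 of 29, called higher in the treated δ line than in the treated β line, against 5.76% of all probes. Of 15 tested replication-independent histone variants, which are also made outside S phase, from polyadenylated mRNAs, 11 and 10 were above 0, with medians of 0.14 and 0.14.

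Other RNAs without a poly(A) tail, such as small nuclear and nucleolar RNAs, were mostly above 0 as well. Of 25 measured, 24 were above 0 in the β line (median 0.81) and 22 in the δ line (median 0.30). By limma 0 passed the threshold in either line, where 0.223% and 0.0788% of all probes did. At an unadjusted p under 0.05, 16 and 10 were higher, against 10.9% and 8.69% of all probes. The medians were 0.41 and 0.19 without scaling between arrays. Their summed level was 182.6 and 189.9 on the treated β arrays against 100.1 and 119.2 on the untreated ones, and 154.9 and 164.7 against 115.5 and 116.0 on the δ arrays. Rn7sk, the 7SK RNA that restrains transcription elongation, read 3.69 and 3.90 on the treated and 2.75 and 2.79 on the untreated β arrays (1.02 ± 0.12, SE; limma adjusted p = 0.0586). In the δ line Rn7sk read 3.71 and 3.82 on the treated arrays and 2.94 on the only untreated array measured, a log2 fold change of 0.83. Rn7sk passed the threshold in the β line in 3 of 18 alternative runs. In the treated lines Rnu2-10, Snora74a and Snord7, 3 of 25, were called lower in the δ line, against 3.94% of all probes. The part of labelling from A stretches in the histone values was not tested. Of 12 thymocyte markers 7 to 9 were well above background per array, and of the 9 tested 8 were above 0 in the β line (median 0.44) and 6 in the δ line (median 0.04). Their summed level was 22.9 and 34.0 on the treated β arrays against 20.5 and 22.1 on the untreated ones, and 19.0 and 20.7 against 17.1 and 20.7 on the δ arrays. Rag2 was dim, with group means from -5.68 to -5.07, and Ptprc, Cd3g and Rag1 were not tested. The markers' part in the histone values was not tested.

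**Figure D5:**
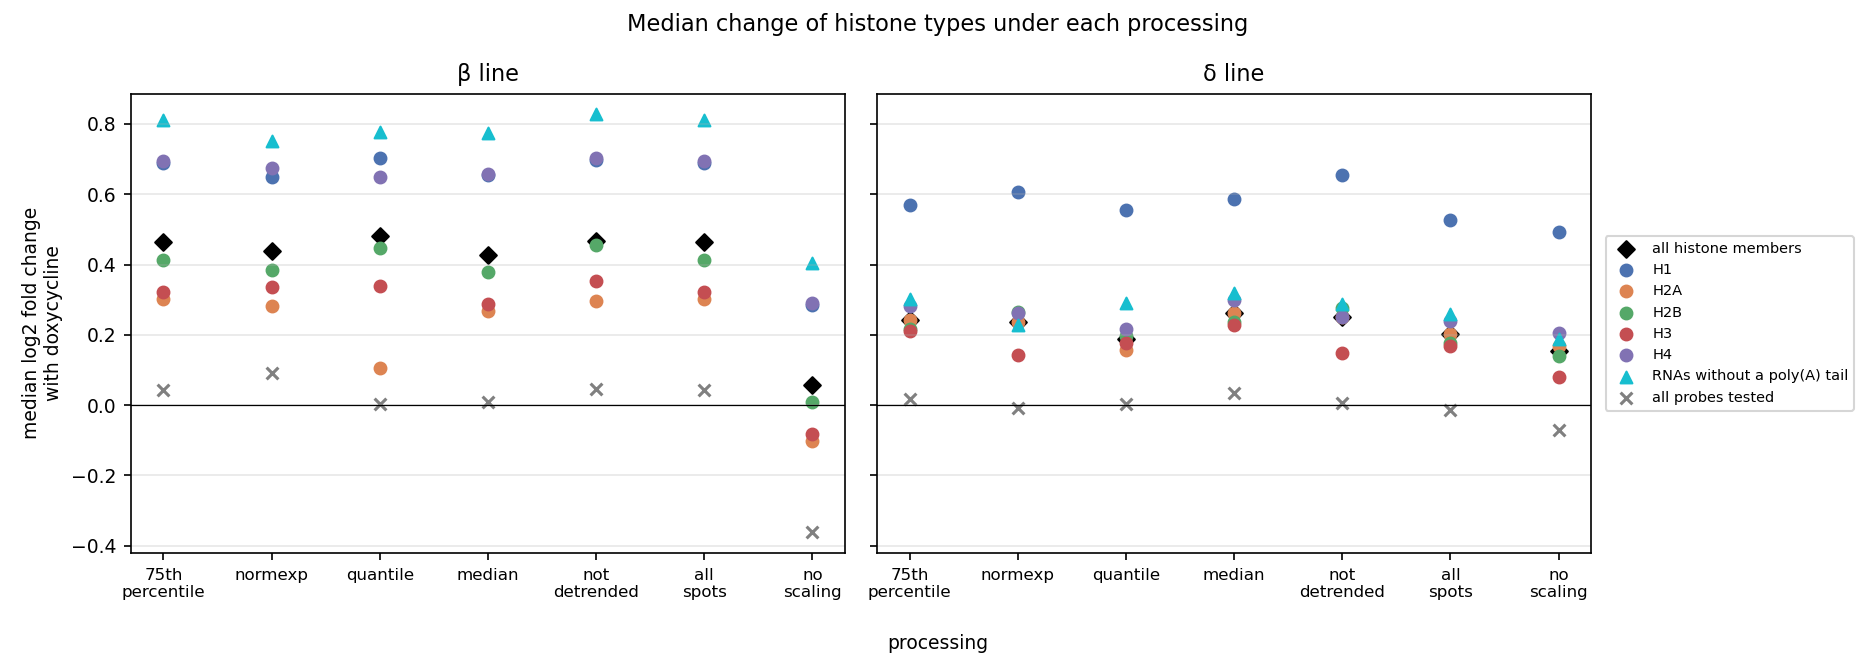
Median log2 fold change with doxycycline under 7 ways of processing, for the histone probes, each histone type, RNAs without a poly(A) tail and all probes tested. The left panel is the β line and the right panel the δ line, and no error is drawn. Without scaling between arrays the β medians fall, to 0.06 for the histone probes and -0.36 for all probes, and the H2A and H3 medians are then below 0.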

How the data were processed

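The members and lists were chosen with earlier results of these data known. The authors deposited linear spot intensity values. Per the file headers, version 11.5.1.1 of Agilent's Feature Extraction subtracted background and detrended each array spatially. Arrays were not normalized to each other. Per the labels' protocols, Cy3 was incorporated with a low input kit. Control spots, outlier flags and spots in 8 by 8 tiles deviating by over 0.3 (log2) were left out. Log2 intensity was averaged per probe and each array's 75th percentile subtracted. Accessions without versions named 32994 of 56605 probes through RefSeq. The 44395 probes that the deposited flags put well above background on each array of 1 or more groups were fitted in limma 3.58.1 (R 4.3.3) with 4 groups and 4 residual degrees of freedom, with Benjamini-Hochberg adjustment over all of them and a threshold of 0.05. The fit was also run on data simulated with independent noise, which hold no effect shared by the arrays of a slide row and so cannot show one.

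Probes were named in the text if past the threshold with groups that do not overlap, if the brightest of their histone type, or if germ cell members, with called list genes and Slbp, Npat and Rn7sk. H1f3, H1f5, H2bc6, H2bc22, H3c7, H3c8, H4c8 and some called S phase genes fall outside that rule and were chosen after their values were seen. Of genes with several probes, none had doxycycline folds of opposite sign. The files hold no mean signal column, so normexp used the median signal. After each group's mean was subtracted, same-numbered treated and untreated arrays correlated at 0.09 in the β line and 0.03 in the δ line. The numbers were therefore not taken as pairs. Precision is limited by 2 arrays per group.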

Additional observations from a re-analysis of the deposited data

How the results depend on the processing

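The median histone change with doxycycline stayed above 0 in every alternative run in both lines, from 0.058 to 0.58 in the β line and from 0.16 to 0.30 in the δ line. Leaving out 1 array moved the β median between 0.32 and 0.58, the δ median between 0.23 and 0.30, the difference between -0.29 and -0.060, the untreated lines between -0.14 and -0.01 and the treated lines between -0.30 and -0.043. Without scaling between arrays, chosen after seeing the data, the medians were 0.058 in the β line, 0.17 for the difference and 0.085 between the treated lines. Fits with 1 array left out have 1 array in a group, so their counts of calls are not compared here. Counts of calls moved with the processing. In the β line normexp called 3 (H1f1, H4c3 and H2bc4), beside 0.908% of all probes, and the brightest probe of each gene 3, beside 1.74% of all genes. Between the untreated lines the count was 3 with normexp, 2 with quantile normalization, 3 with the brightest probe and 3 with the mean over probes, beside 8.41%, 9.73%, 15.1% and 13.9% of all features. Between the treated lines it was 8 with quantile normalization, 3 with median centring, 3 before detrending and 2 without scaling, beside 11.3%, 8.65%, 8.01% and 5.59% of all probes. Without scaling, the sign turned for 20 of 51 histone probes with doxycycline in β cells and 3 in δ cells, for 24 in the difference and for 16 between the treated lines, and with normexp, quantile normalization or median centring 0 to 2 did so with doxycycline and 8 to 9 for the difference. Of the named probes, in the β line H2ac11 gave -0.043 with quantile normalization, and without scaling H2ac11 gave -0.17, H2bc15 -0.34 and H3c4 -0.24. Leaving out 1 array moved the β value of H1f4 between -0.11 and 1.32, below 0 without replicate 2 of either β group, and that of H2bc15 between -0.24 and 0.37, below 0 without treated β replicate 2. Npat in the δ line gave 0.0070 with normexp, and between -0.12 and 0.00080 with 1 array left out. The H2bc4 difference, δ minus β, was 0.17 without scaling. The slide column as a replicate block gave 0 calls and medians of 0.46 and 0.24 and changed no call with doxycycline, and it could not be fitted between lines. Of all probes called in the β line, 47.5% were higher, against 64.3% with normexp and 28.4% with quantile normalization, and in the δ line 45.7% against 6.06% and 5%.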

Other observations

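The histone probes lie in several genomic clusters, and the direction was shared across them. Of the tested probes, 40 belong to genes of chromosome 13, 8 to chromosome 3, 2 to chromosome 11 and 1, H4f16, to chromosome 6. In the β line the median log2 fold change with doxycycline was 0.47 on chromosome 13 (37 of 40 above 0) and 0.31 on chromosome 3 (8 of 8 above 0). In the δ line these medians were 0.22 (35 of 40) and 0.33 (8 of 8). The chromosomes were not compared by a test.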
